A study of Mus musculus with 2 samples.

Results

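Lumican (Lum), decorin (Dcn), biglycan (Bgn), osteoglycin (Ogn), periostin (Postn) and lysyl oxidase (Lox) are secreted products of the fibroblasts that lie between muscle fibres. The genes were taken by symbol, and all 6 were present, each at 1 locus, among the 10543 genes with a single symbol in the deposited table. The comparison asks how transcript levels in aged skeletal muscle differ between calorie restriction (CR) and a control diet. The CR library came from thigh muscle of B6C3F1 mice, a hybrid strain, aged 26 months, which had eaten about 40% fewer calories for 25 months on a diet enriched to keep protein, vitamin and mineral intake per body weight close to that of controls. The control library came from thigh muscle of B6C3F1 mice of the same age on the control diet. Each diet is represented by 1 library of poly(A) RNA, so no difference has a replicate check, no test across samples exists and no p-value is given. The number of mice behind each library is not stated.

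Dcn, Bgn, Ogn and Lum belong to the small leucine-rich proteoglycans, which bind the surface of collagen fibrils and limit how thick the fibrils grow; Dcn and Bgn also bind TGF-beta. Postn is a matricellular protein with fasciclin domains that joins collagen to other matrix proteins and appears in growing or injured connective tissue. Lox is the copper enzyme that oxidises lysines of collagen and elastin, the step from which their crosslinks form. In muscle these proteins are made mainly by interstitial fibroblasts and by cells of tendon and of the sheaths around the fibres.

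Of the 6 genes, Lum and Postn were more than 4-fold higher in the CR library, Lox was 2.50-fold lower, and Dcn, Bgn and Ogn lay within 2-fold, each somewhat higher in the CR library. The values are FPKM, that is, fragments divided by transcript length and by all mapped fragments of a library, so levels can be set side by side between genes. Folds and log2 ratios set FPKM + 1 of CR over that of control, which understates differences of low genes. A 2-fold difference served as the threshold. Among 10533 genes averaging 1 FPKM or more, 8.01% were higher in CR past that threshold and 10.7% were lower. Of the 6 genes, 2 were higher and 1 was lower. Those shares include genes listed at 0 in a library, while all 6 genes were above 0 in both. Of all 10543 genes, 458 were at 0 in the CR library and 247 in the control library. The median log2 ratio was 0.53 for the 6 genes and -0.03 for all genes. With bulk tissue, fewer cells of a type and less RNA per cell cannot be told apart.

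Promoter sequences are shown for Postn, which had the highest ratio of the 6, and for Ogn and Bgn, which were close to level. They are the 250 bases before the start site, from RefSeq on build GRCm38.p6, all on the plus strand, at chr3:54360857-54361106 for Postn, chr13:49607765-49608014 for Ogn and chrX:73483351-73483600 for Bgn. RefSeq lists another Postn start further upstream; the start used here lies 29935 bases from the gene's end, the same length as the deposited Postn locus. Capitals mark TATAAA, the TATA box, on either strand. CCAAT, the CCAAT box, and CAGAC, a Smad half-site, were also searched on both strands, and none occurs in the windows printed here; the window before the other Postn start holds CAGAC, 191 to 187 bases before that start.
Postn: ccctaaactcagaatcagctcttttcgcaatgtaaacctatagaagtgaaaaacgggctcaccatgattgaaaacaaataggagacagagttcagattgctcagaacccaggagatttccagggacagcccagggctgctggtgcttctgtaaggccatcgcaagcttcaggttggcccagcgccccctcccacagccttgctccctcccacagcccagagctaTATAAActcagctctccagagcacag
Ogn: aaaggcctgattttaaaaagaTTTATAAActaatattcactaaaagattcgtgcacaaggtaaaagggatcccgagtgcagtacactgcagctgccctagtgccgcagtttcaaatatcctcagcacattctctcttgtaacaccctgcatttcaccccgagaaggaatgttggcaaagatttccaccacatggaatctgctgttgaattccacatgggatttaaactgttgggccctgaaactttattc
Bgn: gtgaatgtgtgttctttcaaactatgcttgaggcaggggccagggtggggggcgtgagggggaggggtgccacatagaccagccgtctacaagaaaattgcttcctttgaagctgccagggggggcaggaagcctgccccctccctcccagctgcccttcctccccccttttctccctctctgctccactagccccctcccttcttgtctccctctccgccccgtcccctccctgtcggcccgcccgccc
The Postn window holds TATAAA 26 to 21 bases before the start. The Ogn window holds it on both strands, in overlapping matches between 229 and 222 bases before the start, and the Bgn window holds no match. Of 32851 RefSeq windows of the same length, 12.4% hold TATAAA, 33.8% hold CCAAT and 42.2% hold CAGAC. A match is a description of the letters only.

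Among the 4 proteoglycans, Lum was the 1 past 2-fold. Lum, a keratan sulfate proteoglycan best known from the transparent cornea (XLOC_013809, chromosome 10, 97028135 to 97035337, plus strand, build mm9), had 570.2 FPKM in the CR library and 128 FPKM in the control library. This is a log2 ratio of 2.14, a fold of 4.41. Of 9846 genes above 0 in both libraries, 103 (1.05%) had a higher ratio than Lum. Among all genes with a mean of 200 to 500 FPKM, the class in which Lum falls, 4.25% were higher in CR past 2-fold.

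Dcn, which coats collagen fibrils with a single chondroitin or dermatan sulfate chain (XLOC_013808, chromosome 10, 96942105 to 96980796, plus strand), was the most abundant of the 6 in both libraries. It had 3098 FPKM in the CR library and 1902 FPKM in the control library, a log2 ratio of 0.70 and a fold of 1.63. It exceeded 97.5% of all genes in the CR library and 96.2% in the control library. By the absolute difference Dcn led the group, with 1196 FPKM more in the CR library, against 442 FPKM more for Lum.

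Bgn, the closest relative of Dcn (XLOC_012869, chromosome X, 70728974 to 70741275, plus strand), had 309 FPKM in the CR library and 242 FPKM in the control library, a log2 ratio of 0.35. Ogn, also called mimecan (XLOC_017700, chromosome 13, 49703408 to 49719869, plus strand), had 495 FPKM in the CR library and 411 FPKM in the control library, a log2 ratio of 0.27. Many genes had ratios of that size: 25.4% of genes above 0 in both libraries had a higher ratio than Bgn and 29.8% a higher ratio than Ogn. The kit as described in the labels does not mark strand, so reads of overlapping genes cannot be told apart. An unnamed minus-strand locus of 2735 bases inside the 3' part of Bgn had 201 FPKM in the CR library and 124 FPKM in the control library. Cenpp, a centromere protein gene whose minus-strand locus spans Ogn, had 29.0 FPKM in the CR library and was listed at 0 in the control library. The values of Bgn and Ogn are uncertain to that extent. The values of the unnamed locus lie further apart than those of Bgn, which differ by 66.8 FPKM. The direction of Bgn is therefore uncertain too.

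Postn (XLOC_003338, chromosome 3, 54165029 to 54194963, plus strand) had 187 FPKM in the CR library and 38.6 FPKM in the control library. Its log2 ratio of 2.24, a fold of 4.73, was the highest of the 6, and 91 of 9846 genes (0.924%) had a higher one. Its level was low for this table: it exceeded 44.0% of genes in the CR library and 10.5% in the control library, where the median gene stood at 223 FPKM in each. At means of 50 to 200 FPKM, 8.94% of genes were higher in CR past 2-fold, so a 2-fold difference is more common at this level than in the class of Lum.

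Lox (XLOC_022593, chromosome 18, 52676892 to 52689362, minus strand) was the one gene of the 6 that was lower in the CR library, at 129 FPKM, against 323 FPKM in the control library. Its log2 ratio was -1.32, a fold of 2.50, and 3.85% of genes above 0 in both libraries had a lower ratio. At means of 200 to 500 FPKM, 4.48% of genes were lower past 2-fold. An unnamed locus of 678 bases, separated by 491 bases from the 3' end of Lox, had 26.9 FPKM in the CR library and 37.1 FPKM in the control library, a log2 ratio of -0.45.

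**Figure D1:**
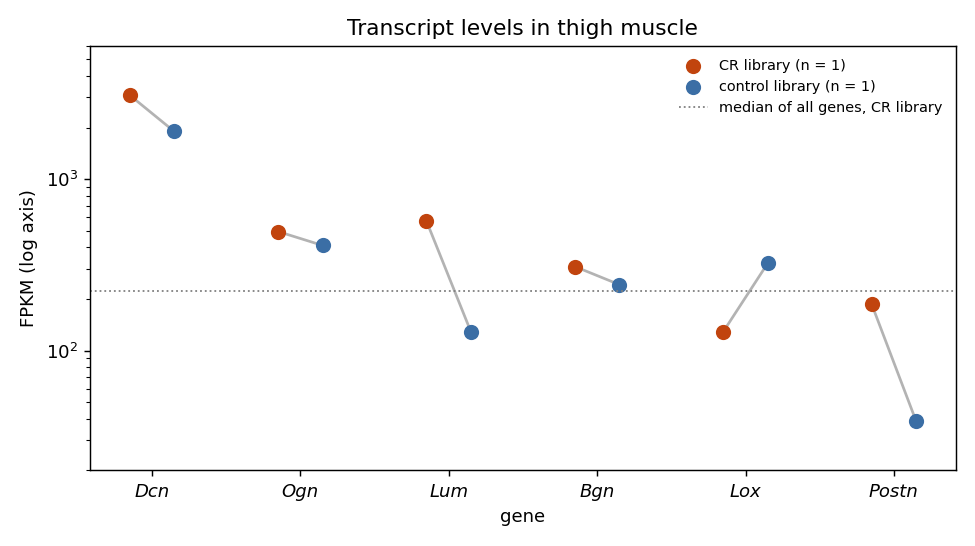
FPKM of each gene on a log axis, with the CR library in red on the left of each pair and the control library in blue on the right; each point is 1 library, and the dotted line is the median gene of the CR library. Lum (570.2 in CR, 128 in control) and Postn (187 in CR, 38.6 in control) are far higher in CR, Lox (129 in CR, 323 in control) is lower, and the pairs of Dcn, Ogn and Bgn differ by less than 2-fold.

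The order of the 6 genes differed between the libraries. In the CR library it ran Dcn, Lum, Ogn, Bgn, Postn, Lox from high to low, and in the control library Dcn, Ogn, Lox, Bgn, Lum, Postn. With 1 library per diet, whether neighbours in these orders differ beyond replicate spread cannot be said. The 6 genes summed to 4788 FPKM in the CR library and 3046 FPKM in the control library, a ratio of 1.57. Dcn made up 64.7% of that sum in the CR library and 62.5% in the control library. Lum made up 11.9% in the CR library and 4.22% in the control library. Lox made up 2.69% in the CR library and 10.6% in the control library. Lum transcripts thus stood at 4.43 per Lox transcript in the CR library and 0.397 in the control library, and Postn transcripts at 1.45 per Lox transcript in the CR library and 0.119 in the control library.

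**Figure D2:**
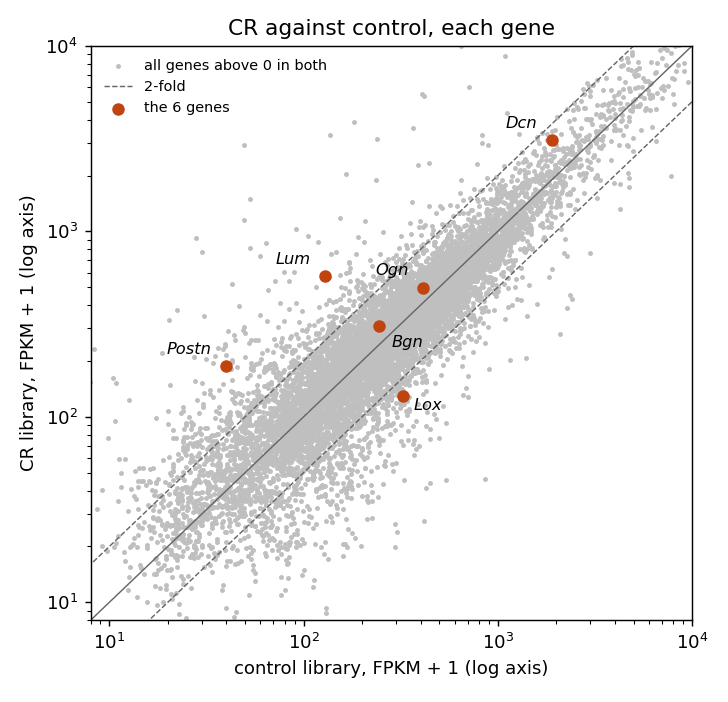
FPKM + 1 of each gene above 0 in both libraries (grey), with the CR library on the vertical and the control library on the horizontal log axis, cut to the range around the 6 genes (red); the solid line is equality and the dashed lines 2-fold. Lum and Postn lie above the upper 2-fold line, Lox lies below the lower one, and Dcn, Ogn and Bgn lie between the lines.

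Likeness was taken as nearest distance on the log2 scale in the plane of both libraries. It covered 9277 genes above 0 in both, with symbols of predicted genes (Gm number, Rik) left out. The genes most like Postn were Ntrk2 (179 FPKM in CR, 41.2 in control), Zfp385a (197 in CR, 41.9 in control) and Pdlim4 (203 in CR, 41.7 in control). Those most like Lum were Sdc2 (498 FPKM in CR, 115 in control), Ppt1 (584 in CR, 153 in control) and Fdps (499 in CR, 155 in control). Sdc2 encodes syndecan-2, a heparan sulfate proteoglycan of the cell membrane. The distances ran from 0.109 to 0.159 log2 units for Postn and from 0.247 to 0.328 for Lum, and the likeness rests on 2 libraries.

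Proteoglycan genes that are neighbours on the chromosome differed in ratio in the Dcn cluster, and in the Ecm2 cluster Aspn differed from Ecm2 and Ogn, whose ratios were close. Dcn, Lum and Kera, the gene of the corneal proteoglycan keratocan, lie in that order on the plus strand of chromosome 10, with 47.3 kb between Dcn and Lum and 34.5 kb between Lum and Kera. Their log2 ratios were 0.70, 2.14 and -0.52, and Kera had 34.1 FPKM in the CR library and 49.5 FPKM in the control library. Ecm2, Aspn and Ogn lie in that order on chromosome 13, and their log2 ratios were 0.31, -0.61 and 0.27. Aspn, asporin, which binds collagen and TGF-beta, had 187 FPKM in the CR library and 286 FPKM in the control library. Ecm2, a matrix protein with leucine-rich repeats, had 131 FPKM in the CR library and 106 FPKM in the control library. Cenpp, with 29.0 FPKM in the CR library and 0 in the control library, spans these 3 genes as well. The values of Ecm2 lie closer together than those of Cenpp, so the direction of Ecm2 is uncertain.

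**Figure D3:**
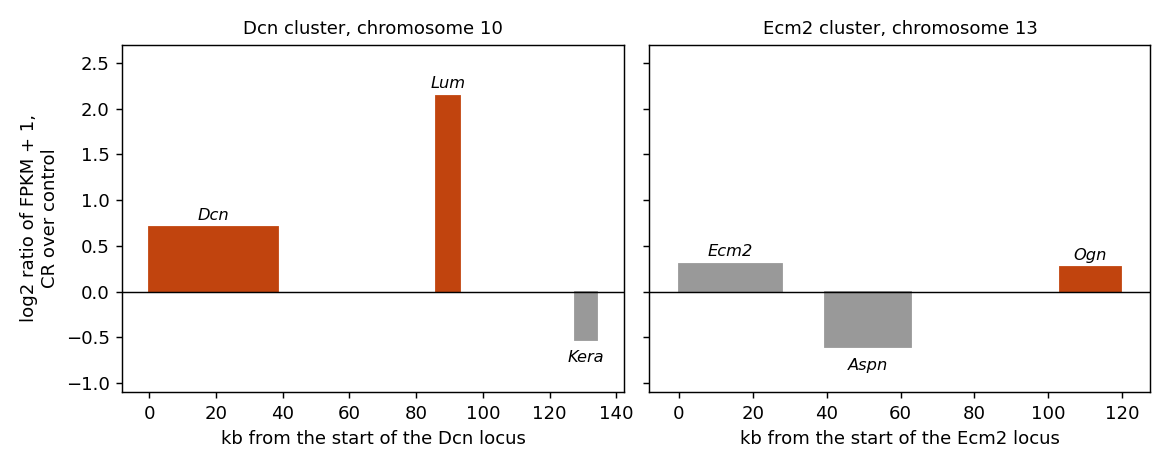
Log2 ratio of FPKM + 1, CR over control, as bar height for the 3 genes of each cluster, drawn at their distance in kb from the start of the first locus and as wide as the locus; red bars are Dcn, Lum and Ogn, grey bars their neighbours. Lum (2.14) is well above Dcn (0.70), while Kera (-0.52) and Aspn (-0.61) are below 0.

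Relatives of the 6 genes showed no ratio as high as those of Lum or Postn. Of 12 other small leucine-rich proteoglycans, 7 were measured, and 0 were higher past 2-fold, 2 lower and 5 within it, with a median log2 ratio of -0.52. Fmod, fibromodulin, abundant in tendon, had 373 FPKM in the CR library and 844 FPKM in the control library, 2.26-fold lower in CR. Chad, chondroadherin of cartilage and tendon, was listed at 0 in the CR library and had 85.0 FPKM in the control library; a 0 in this table can be a failed estimate. Podn, podocan, had 169 FPKM in the CR library and 96.5 FPKM in the control library, and Prelp 142 FPKM in the CR library and 178 FPKM in the control library.

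The other lysyl oxidases were low and close to level, unlike Lox. Loxl1, which acts on elastin, had 59.2 FPKM in the CR library and 45.8 FPKM in the control library. Loxl2, which acts on the collagen of basement membranes, had 61.8 FPKM in the CR library and 42.5 FPKM in the control library. Loxl3 had 25.7 FPKM in the CR library and 32.6 FPKM in the control library. Their log2 ratios ran from -0.33 to 0.53, against -1.32 for Lox. The fasciclin-domain relatives of Postn were near level too, with log2 ratios of 0.20 for Tgfbi, which also binds collagen (394 FPKM in CR, 342 in control), 0.17 for Stab2 (400.0 in CR, 355 in control) and -0.28 for Stab1 (164 in CR, 200 in control); the last pair are scavenger receptors.

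The collagens that these proteins bind and crosslink were mixed. Of 11 measured, 3 were higher past 2-fold, 2 lower and 6 within it, with a median log2 ratio of 0.43. Col1a1, a chain of type I collagen, had 564 FPKM in the CR library and 245 FPKM in the control library, a fold of 2.30. Col1a2, its partner chain, had 549 FPKM in the CR library and 445 FPKM in the control library, a fold of 1.23. Col5a3, of type V collagen, had 379 FPKM in the CR library and 169 FPKM in the control library. Col11a2, of type XI collagen, had 25.3 FPKM in the CR library and 115 FPKM in the control library, 4.41-fold lower in CR. Col12a1, on fibril surfaces in tendon, was listed at 0 in the CR library and had 55.7 FPKM in the control library.

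The enzymes that modify and trim collagen before Lox acts were mostly level: of 14 measured, 2 were higher past 2-fold, 1 was lower and 11 were within it, with a median of -0.12. Crtap, a subunit of the prolyl 3-hydroxylase complex, had 285 FPKM in the CR library and 136 FPKM in the control library. Its relatives Leprel1 (42.0 FPKM in CR, 19.2 in control) and Leprel2 (18.0 in CR, 44.3 in control) went opposite ways. P4hb, the beta subunit of prolyl 4-hydroxylase, had 862 FPKM in the CR library and 1073 FPKM in the control library. Bmp1, the protease that trims procollagen and activates the Lox precursor, had 423 FPKM in the CR library and 305 FPKM in the control library, a log2 ratio of 0.47.

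Of 23 measured elastic fibre and matricellular genes, 4 were higher past 2-fold, 3 lower and 16 within it, with a median of 0.19. Mfap2 was listed at 0 in the control library and Tnc at 0 in the CR library. Without them 3 were higher and 2 lower. Thbs2, thrombospondin 2, had 74.1 FPKM in the CR library and 367 FPKM in the control library, 4.91-fold lower in CR. Cyr61, a matricellular protein of the CCN family, had 280 FPKM in the CR library and 642 FPKM in the control library. Spp1, osteopontin, had 44.0 FPKM in the CR library and 13.6 FPKM in the control library, and Tnxb, tenascin X, 1354 FPKM in the CR library and 1318 FPKM in the control library. Of 15 measured genes for chondroitin and dermatan sulfate chains, which Dcn and Bgn carry, 2 were higher past 2-fold, 6 lower and 7 within it, with a median of -0.49. Of these, Chst11, Chst14 and Ust were listed at 0 in the CR library and Csgalnact1 at 0 in the control library. Over the 11 genes above 0 in both libraries 1 was higher, 3 were lower and the median was -0.23. Only Fam20b (log2 ratio -0.23) and Csgalnact2 (0.55) averaged 100 FPKM or more, and their median was 0.16. Xylt1, which adds the first sugar of the chain, had 16.0 FPKM in the CR library and 132 FPKM in the control library. Chsy1, which extends the chain, had 67.5 FPKM in the CR library and 22.9 FPKM in the control library. Chst15, a chondroitin sulfotransferase, had 21.2 FPKM in the CR library and 48.3 FPKM in the control library. The most abundant of this list was Csgalnact2, with 324 FPKM in the CR library and 221 FPKM in the control library.

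For TGF-beta signalling, which induces many matrix genes, 0 of 22 measured genes were higher past 2-fold, 2 were lower and 20 were within it, with a median of -0.26. The count of lower genes was 4 when the libraries were rescaled to equal sums, leaving the 50 most abundant genes out of the sums, and 1 with a pseudocount of 5 FPKM or over genes averaging 100 FPKM or more. The lower pair were the inhibitory Smads, Smad7 (57.4 FPKM in CR, 185 in control) and Smad6 (18.6 in CR, 41.7 in control). Tgif1, a repressor of Smad targets, had 51.5 FPKM in the CR library and 104 FPKM in the control library, just inside 2-fold. Ltbp4, which stores latent TGF-beta in the matrix, had 1056 FPKM in the CR library and 1466 FPKM in the control library. Matrix proteases and their inhibitors were level apart from Mmp11, or stromelysin 3 (62.0 FPKM in CR, 21.5 in control), the 1 of 11 that was higher past 2-fold, beside 0 lower and a median of 0.36. The most abundant of these was the inhibitor Timp3, with 563 FPKM in the CR library and 434 FPKM in the control library; Reck had 54.0 FPKM in the CR library and 34.4 FPKM in the control library, and Mmp19 72.5 FPKM in the CR library and 47.5 FPKM in the control library. Over all these relatives and pathway genes, 12 of 109 (11.0%) were higher past 2-fold and 16 (14.7%) lower, with a median of -0.02, beside 8.01% and 10.7% of all genes.

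**Figure D4:**
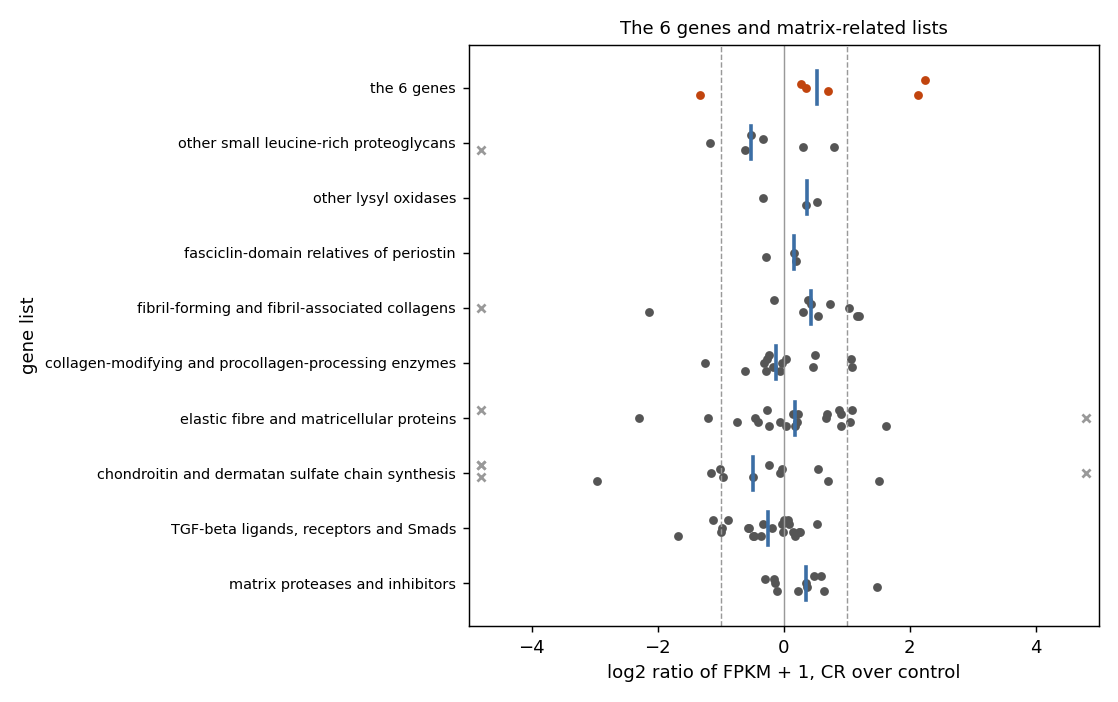
Log2 ratio of FPKM + 1, CR over control, of each measured gene by list; red dots are the 6 genes, dark dots the others, blue bars the list medians and dashed lines 2-fold. Grey crosses at the edge are genes listed at 0 in a library, which have no fold; some overlap. Lum and Postn are to the right of every dot of the other lists, and Lox is among the lower dots of the matricellular and TGF-beta lists.

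Markers of the cells that a piece of thigh muscle can hold differed between the libraries too. Their counts stand beside 8.01% of all genes higher in CR past 2-fold and 10.7% lower. Skeletal muscle markers were present, 12 of 12, with Acta1, skeletal actin, at 354522 FPKM in the CR library and 372424 FPKM in the control library, and none of the 11 cartilage and bone markers was measured. Of 16 measured fibroblast markers other than the 6 genes, 5 were higher past 2-fold and 0 lower, with a median log2 ratio of 0.69. Those 5 lay close to 2-fold, from 2.03 for Dpt to 2.30 for Col1a1, and 2 were past it when the libraries were rescaled to equal sums in that way. Of the 5, Col1a1, Col3a1 and Mfap5 are also in the matrix lists above, so they are not separate observations. The markers summed to 7648 FPKM in the CR library and 4882 FPKM in the control library, a ratio of 1.57. That ratio was 1.57 for the 6 genes, 1.49 for muscle fibre markers, 1.49 for Schwann cell markers and 1.71 for smooth muscle markers. It was 3.28 for white adipocyte, 1.32 for endothelial, 1.19 for macrophage and 0.492 for tendon markers. Gsn (2554 FPKM in CR, 1942 in control) and Tcf4 (1026 in CR, 618 in control) were the largest parts of the fibroblast sums. Their expression outside fibroblasts was not tested. Tcf7l2, a gene separate from Tcf4, was the 1 marker lower in CR (75.5 FPKM in CR, 110 in control). Pdgfra, the receptor that defines these cells, had 275 FPKM in the CR library and 192 FPKM in the control library, a log2 ratio of 0.52. Across the 16 markers the log2 ratios ran from -0.54 to 1.20, so those of Dcn, Bgn and Ogn lay inside that range, those of Lum and Postn above it and that of Lox below it.

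All 11 measured white adipocyte markers were higher in the CR library, 9 of them past 2-fold, with a median of 2.13, and summed to 27142 FPKM in the CR library and 8285 FPKM in the control library. Fabp4, their most abundant member, had 12924 FPKM in the CR library and 2948 FPKM in the control library, a log2 ratio of 2.13. Adipoq had 1178 FPKM in the CR library and 153 FPKM in the control library. Over adipocyte markers above 0 in both libraries the log2 ratios ran from 0.53 to 4.53, and those of Lum and Postn lay inside that range. Adrb3 was listed at 0 in the control library. Past 2-fold, 6 of 10 tendon markers were lower in CR and 0 higher, with a median of -1.25, and summed to 1178 FPKM in the CR library and 2394 FPKM in the control library. Among genes above 0 in both libraries the median was -0.99, inside 2-fold, and 3 were past 2-fold. They were Scx, the transcription factor of tendon cells (24.3 FPKM in CR, 62.3 in control), Comp (55.5 in CR, 154 in control) and Fmod. Tnc, Col12a1 and Chad were listed at 0 in the CR library. Those genes, with Fmod, Kera and Thbs4, are also in the matrix lists above and are not separate observations. Over tendon markers above 0 in both libraries the log2 ratios ran from -1.46 for Comp to 0.18 for Tnmd, and that of Lox lay inside that range. Tnmd, with 78.0 FPKM in the CR library and 68.9 FPKM in the control library, was the 1 tendon marker higher in CR. The part of adipocyte and tendon tissue in the ratios of Lum, Postn and Lox was not tested.

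Smooth muscle and pericyte markers were higher past 2-fold in 3 of 8 cases and lower in 0 (median 0.75; sums of 4131 FPKM in CR and 2410 in control), with Myh11 at 463 FPKM in the CR library and 171 FPKM in the control library. Endothelial markers were higher past 2-fold in 2 of 11 and lower in 0 (median 0.29; sums of 3993 in CR and 3020 in control). Of 10 macrophage and leukocyte markers, 5 were measured. Of those 5, 2 were higher past 2-fold, with Cd14 listed at 0 in the control library, and 0 were lower. Their median was 0.36, with sums of 401 FPKM in CR and 336 in control. Schwann cell markers were higher past 2-fold in 1 of 7 and lower in 1 (median 0.44; sums of 1048 in CR and 702 in control); both belong to markers listed at 0, S100b in the control library and Sox10 in the CR library. Muscle fibre markers had a median of 0.64 and sums of 1486200 FPKM in CR and 1000200 in control, with Myh7, the slow myosin heavy chain, at 81978 FPKM in the CR library and 8953 FPKM in the control library. The part of these cell types in the ratios of the 6 genes was not tested.

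**Figure D5:**
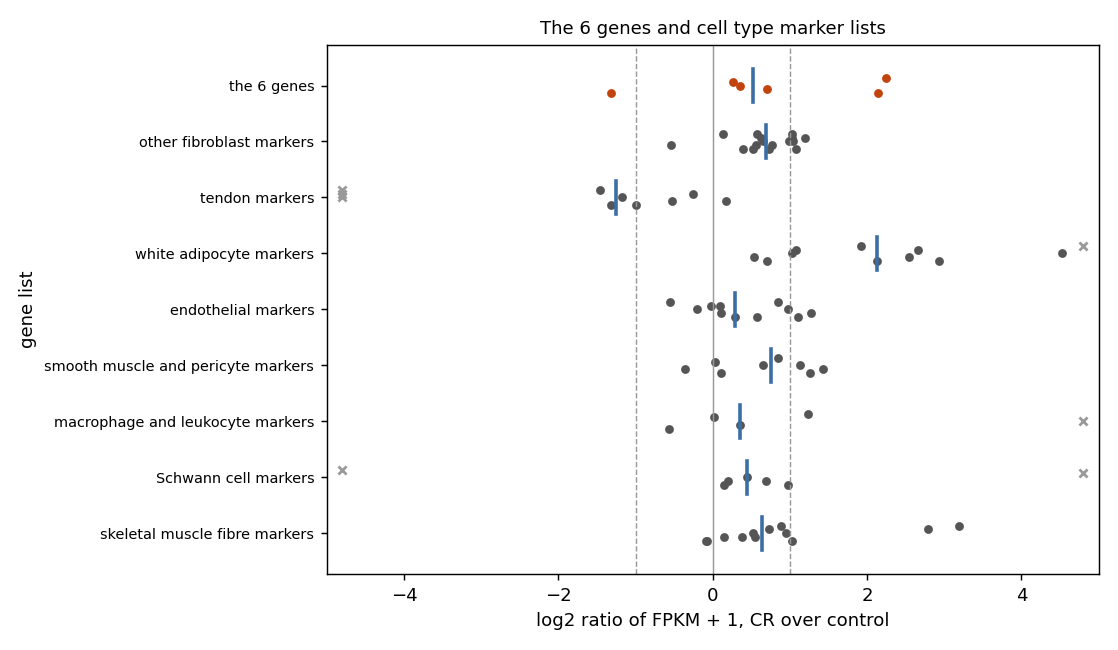
Log2 ratio of FPKM + 1, CR over control, of each measured marker by cell type, with the 6 genes in red on the top line; blue bars are list medians, dashed lines are 2-fold and grey crosses at the edge are markers listed at 0 in a library. The medians run from -1.25 for tendon to 2.13 for white adipocytes, with fibroblast markers at 0.69. Over markers above 0 in both libraries the medians were -0.99 for tendon and 2.03 for white adipocytes.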

How the data were processed

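Poly(A) RNA of 2 libraries was analysed, 1 per diet as the labels give it. TopHat 1.2.0, Cufflinks, Cuffdiff and build mm9 are named in the submitters' processing notes, with no options, annotation or filters. FPKM were deposited by the authors for 23672 loci, per the file headers. The lowest deposited value is 1, and in the CR column 50 of 52 values between 100 and 101, but 0 of 53 between 101 and 102, carry more than 6 digits, so 1 was taken to have been added and was subtracted. Depth is unknown and no interval can be given. The columns sum to 13608849 FPKM in the CR library and 12758512 FPKM in the control library, an unexplained scale that bars comparison with other data.

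Loci with 1 symbol were kept and summed by symbol; 234 with several were left out. The log2 ratio of FPKM + 1 was computed for genes averaging 1 FPKM or more, unscaled. Its arithmetic was checked on simulated data, with changes large enough to be found by design and no zeros. That check says nothing about error in these data. The 6 genes, the 18 other lists and the alternatives were chosen with earlier results of these data known. Named are the 6 genes, their measured relatives, and the most abundant gene and up to 3 genes with the largest ratios of other lists (mean of at least 20 FPKM, above 0 in both); cell type lists are given mainly by counts. Bmp1, Pdgfra, Dpt, Cenpp, Tcf4, Tcf7l2, Col3a1, Thbs4, Tnmd, Fam20b and the non-relatives listed at 0 in a library were named after their values were seen. List genes without a value are not analysed here. Promoters came from RefSeq by symbol, for 3 of the 6 genes. Lum and Dcn had no entry, and entries on chromosome 18, where Lox lies, were left out. Python 3.11.15, numpy 2.4.6, pandas 2.3.3 and matplotlib 3.10.9 were used.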

Additional observations from a re-analysis of the deposited data

How the results depend on the processing

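A result was counted as altered where it crossed 2-fold or changed sign, or, for a count, moved by more than 1.5 times. Alternatives were pseudocounts of 0.1 and 5 FPKM, the largest locus of a symbol, and subtraction of the median ratio. Another was rescaling to equal sums with the 50 most abundant genes left out. Under each, all 6 genes kept their direction and their side of 2-fold. Each of the 6 genes has 1 locus, so the largest-locus setting could not change them. The subtracted median was -0.016 and the pseudocounts are small beside these values, so those settings left little room for a gene to cross 2-fold. The log2 ratios ranged from 2.07 to 2.16 for Lum, 2.13 to 2.27 for Postn, 0.63 to 0.72 for Dcn, 0.28 to 0.37 for Bgn, 0.20 to 0.28 for Ogn and -1.40 to -1.30 for Lox. Over the related lists, a filter at a mean of 100 FPKM left 6 genes higher past 2-fold and 5 lower, against 12 and 16, since fewer genes were counted. Genes above 0 in both libraries gave 10 lower, for the same reason. The median of the chondroitin and dermatan sulfate genes was 0.16 instead of -0.49 with the 100 FPKM filter, which left only Fam20b and Csgalnact2. For tendon markers above 0 in both libraries the median was -0.99 instead of -1.25, inside 2-fold. Of 405 values of single lists, 377 were unaltered. That total includes the largest-locus setting and a setting with no filter, which left every list value as it was. No paired analysis was possible because each group has 1 library. With 1 library per diet and unknown depth, neither animal-to-animal nor counting error is known for any value.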
